A study of Mus musculus with 10 samples.

Results

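The replication dependent histone genes encode the core histones H2A, H2B, H3 and H4, which form the nucleosome, and the linker histone H1, which binds the DNA between nucleosomes. They were taken here as every row of the deposited count table with a symbol that starts with HIST1H, HIST2H, HIST3H or HIST4H and with at least 10 counts over the 10 libraries. This rule kept 60 of 90 such rows, in a table of 58735 human genes. The 60 genes comprised 6 of 8 rows for H1, 13 of 23 for H2A, 18 of 26 for H2B, 11 of 17 for H3 and 12 of 16 for H4. Of these, 53 were annotated as protein-coding and 7 as pseudogenes. By cluster, 42 of 68 rows of HIST1 were kept, 14 of 17 of HIST2, 3 of 4 of HIST3 and 1 of 1 of HIST4. The members of HIST1 lay on chromosome 6, those of HIST2 and HIST3 on chromosome 1 and HIST4H4 on chromosome 12.

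Cells make these mRNAs in bulk while they copy their DNA and destroy them when replication ends. The mature mRNA of such a gene is known for ending in a conserved stem-loop in place of a poly(A) tail: the stem-loop binding protein SLBP and the U7 small nuclear ribonucleoprotein direct the cut, and a degradation pathway with UPF1 and terminal uridylation removes the mRNA. Some members are also known to give polyadenylated transcripts, in cells that have left the cycle in particular, and a library that selects poly(A) tails holds few of the stem-loop forms. Whether the libraries were made by poly(A) selection or by removal of ribosomal RNA was not given in the sources used here, so low values below need not mean that a gene was silent.

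RNA came from subcutaneous tumours of LNCaP, a human epithelial prostate cancer cell line that responds to androgen. The tumours grew in mice labelled NOD.Cg-Prkdcscid Il2rgtm1Wjl/SzJ, a strain without T, B and NK cells of its own. The 5 IL-15 tumours came from mice that received sipuleucel-T (sip-T, a product of human blood cells primed against prostatic acid phosphatase) in 100 µl intraperitoneally together with 1 µg of IL-15 (recombinant, human), which keeps T and NK cells alive and dividing. The 5 control tumours came from mice given sip-T with vehicle. All tumours were collected on day 7 after the last injection, and the age of the mice was not given in the sources used here. Both sip-T exposed to IL-15 and IL-15 given to the mouse appear in the protocol, while the sample labels name control sip-T plus IL-15, so the routes cannot be told apart.

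Total counts, in units of 1000000 reads, ranged from 13.6 to 19.3 per library, and the 60 histone genes took 0.0365 to 0.0859% of them. Values below are counts per 1000000 counts (CPM) after TMM scaling, and FPKM, which is also divided by gene length, where genes are compared with each other. A floor of 3 counts stood for 0.159 to 0.221 CPM per library, for counting error only. The tumour cells carried the markers of their label: all 10 prostate luminal markers were detected, with KLK3 at 5584 ± 1336 CPM in IL-15 and 4743 ± 1071 CPM in control tumours (SD, n = 5 each). B cell markers summed to at most 0.547 CPM with MS4A1 at 0, and myeloid markers to 1.54 to 3.37 CPM.

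Before any comparison of the groups, a library from each of them stood apart in its histone transcripts. The summed level of the 60 genes was 462, 443, 521, 863 and 465 CPM in IL-15 tumours 1 to 5, against 734, 483, 411, 394 and 396 CPM in control tumours 1 to 5. IL-15 tumour 4 and control tumour 1 were the 2 highest, the other 8 libraries lay between 394 and 521 CPM, and the groups overlapped over most of their range. Of the 31 members with a mean of at least 1 CPM, 26 were highest in one of these libraries, 19 in IL-15 tumour 4 and 7 in control tumour 1, and in 20 of the 31 the 2 libraries held the 2 highest values. These 2 libraries were picked by the sum of the same members. How often other genes were highest in them was not counted. Prostate luminal markers also summed highest in IL-15 tumour 4 (14521 CPM), with control tumour 1 ranked 3. Control tumour 4 was the lowest library for 13 of the 31 members and control tumour 5 for 8. From the histone counts of a bulk tumour alone, fewer cells in S phase and less histone RNA per cell cannot be told apart. Levels of S phase genes by library are given below.

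Spread between tumours was also read gene by gene. The coefficient of variation over all 10 libraries had a median of 35.2% (range 16.4 to 47.3%) in the 17 members with a mean of 5 to 200 CPM, beside a median of 20.0% and an upper quartile of 27.5% in the 10980 tested genes of that range, and 12 of the 17 lay above that quartile. Without IL-15 tumour 4 and control tumour 1 the medians were 24.1% for the members and 21.0% for all tested genes of the range, and 3 of the 17 lay above the upper quartile of 28.8%. Those 2 libraries were picked as the highest in the members, so some fall of the members' spread without them was built in. These are descriptions, since the members also share their libraries. The pseudogene HIST2H2BC was the steadiest of the 17.

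An RNA outside the histone genes shared the 2 highest libraries and the lowest library with the histone sum, but not the order of the rest. RN7SL2, the RNA of the signal recognition particle, which is made without a poly(A) tail, stood at 176, 119, 118, 248 and 142 CPM in IL-15 tumours 1 to 5, against 349, 220.0, 151, 53.5 and 202 CPM in control tumours 1 to 5. Control tumour 1 was highest, IL-15 tumour 4 second and control tumour 4 lowest, a spread of 6.53-fold. IL-15 tumour 3 was low in it but reached 521 CPM in the histone sum. Control tumour 5 lay above it here but reached only 396 CPM in the histone sum. SNORA73B, a small nucleolar RNA, had another order, at 3.58, 1.06, 1.25, 2.01 and 2.35 CPM in IL-15 tumours, against 3.20, 3.39, 1.64, 1.74 and 2.07 CPM in control tumours. Of the 16 rows for RNAs without poly(A) tails that were looked up, these 2 alone passed the filter on low counts, and 9 were at 0 in all libraries, among them RN7SK, RN7SL1, RPPH1 and RNU7-1, the RNA of the U7 particle. The part of library preparation in the histone levels was not tested.

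Genes of DNA replication did not have IL-15 tumour 4 and control tumour 1 on top. The summed level of 32 S phase and replication genes was 2319, 2505, 1466, 1841 and 2089 CPM in IL-15 tumours 1 to 5, against 2061, 2254, 2591, 1448 and 2804 CPM in control tumours 1 to 5. IL-15 tumour 4 ranked 8 and control tumour 1 ranked 7 of the 10 libraries in this sum. Control tumour 4 was lowest in it as it was in the histone sum. Control tumour 5 was highest in it but reached only 396 CPM in the histone sum. IL-15 tumour 3 stood at 1466 CPM here and at 521 CPM in the histone sum. For the 15 genes of G2 and mitosis, IL-15 tumour 4 ranked 8 and control tumour 1 ranked 6, with control tumour 5 highest and control tumour 4 lowest.

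Markers of other cells were also read by library. Fibroblast and endothelial markers, almost all COL1A1 and VWF, summed to 75.2, 53.6, 68.3, 82.9 and 44.8 CPM in IL-15 tumours, against 94.9, 39.8, 27.8, 43.5 and 63.5 CPM in control tumours, so that control tumour 1 was highest and IL-15 tumour 4 second. The 10 T cell markers summed to 34.1, 4.89, 23.2, 18.7 and 6.32 CPM in IL-15 tumours and to 3.07, 3.32, 15.9, 4.01 and 3.93 CPM in control tumours. Control tumour 1 was the lowest of all libraries in T cell markers and IL-15 tumour 4 ranked 3. The 8 NK and cytotoxic markers ranged from 3.61 to 37.0 CPM in IL-15 tumours and from 0.989 to 14.5 CPM in control tumours. The fibroblast and endothelial values are counts of human genes in tumours grown in mice, so which cells gave them is not known. The part of other cells in the histone levels was not tested.

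**Figure D1:**
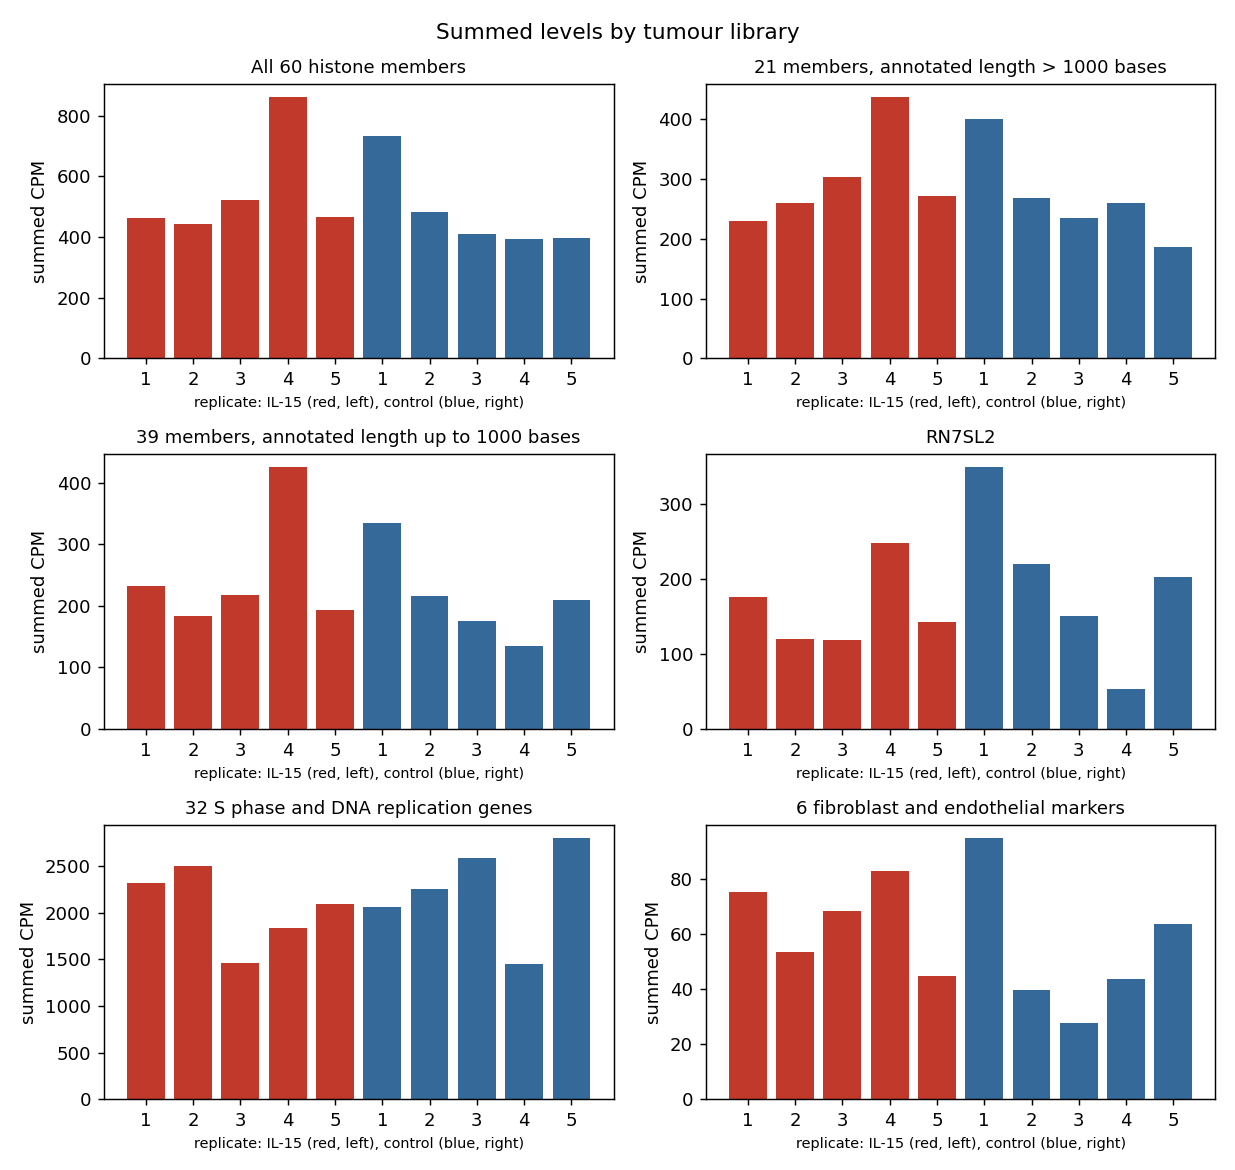
Summed CPM (y axis, from 0) in each library, with IL-15 tumours 1 to 5 in red on the left of each panel and control tumours 1 to 5 in blue on the right; each bar is 1 library. The all-member panel peaks at 863 CPM in IL-15 tumour 4 and 734 CPM in control tumour 1, the RN7SL2 and fibroblast and endothelial panels have the same 2 libraries on top, and the S phase panel does not.

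A few members carried most of the signal. By deposited FPKM, HIST1H2BK and HIST1H1C made up 53.5% of the summed mean level of the 60 genes and the 5 highest members 71.6%. FPKM depends on the annotated length, which is 381 bases for HIST1H2BK and 642 for HIST1H1C but 2194 for HIST2H2BE. By mean CPM, HIST1H1C (90.1), HIST2H2BE (87.5) and HIST1H2BK (59.3) led and together held 45.8%. A mean of at least 10 FPKM was reached by 9 members and a mean under 1 FPKM was seen in 23. The means of HIST1H2BK (141 ± 65.7 FPKM) and HIST1H1C (127 ± 58.9 FPKM; SD, n = 10 here and for the FPKM values that follow) lay within their spread of each other. Next came HIST2H2BE at 36.1 ± 11.5, HIST3H2A at 32.7 ± 7.52 and HIST1H2AC at 21.3 ± 6.43 FPKM, of which each neighbouring pair overlapped within 1 SD.

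By class, H2B genes took a median of 45.5% of the summed histone FPKM over the libraries (range 39.0 to 49.2%) and H1 genes 25.5% (15.8 to 32.6%). H2A genes followed with 17.3% (11.4 to 18.5%), H4 genes with 9.04% (7.89 to 12.6%) and H3 genes with 4.55% (3.15 to 6.00%). These shares also depend on the annotated lengths, which differ between members. A nucleosome holds the 4 core histones in equal numbers, and the transcripts counted here were not in equal shares.

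Among the linker histones 1 gene stood out. HIST1H1C (ENSG00000187837, hg38 chr6:26055787-26056428, minus strand) encodes H1.2, a somatic subtype found in most human cells. It reached 109, 56.9, 106, 186 and 62.5 CPM in IL-15 tumours, against 118, 71.5, 71.2, 35.0 and 86.0 CPM in control tumours. IL-15 tumour 4 was highest, control tumour 4 lowest, and the groups overlapped (104 ± 51.8 against 76.3 ± 29.9 CPM, log2 fold change 0.45 ± 0.36 SE, adjusted p = 0.836 by edgeR's quasi-likelihood test). The next linker genes were far lower, with HIST1H1E, which encodes H1.4, at 1.48 ± 0.518 FPKM and HIST1H1B, which encodes H1.5, at 1.22 ± 0.516 FPKM. HIST1H1T, the testis-specific H1, had 12 counts in all.

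H2B genes were the largest and highest class. HIST1H2BK (ENSG00000197903, chr6:27146418-27146798, minus strand) stood at 60.4, 55.6, 46.9, 121 and 45.0 CPM in IL-15 tumours, against 97.4, 54.2, 36.1, 35.7 and 40.9 CPM in control tumours. IL-15 tumour 4 and control tumour 1 lay well above the other 8 libraries, which spanned 35.7 to 60.4 CPM. HIST2H2BE (ENSG00000184678, chr1:149884459-149886652, minus strand), an H2B gene with an annotated length of 2194 bases, reached 59.0, 70.5, 112, 124 and 95.0 CPM in IL-15 tumours, against 132, 71.3, 68.2, 95.9 and 47.8 CPM in control tumours. Here control tumour 1 was highest, closely followed by IL-15 tumours 4 and 3, so the same pair did not stand alone.

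HIST1H2BD stood at 7.65, 10.2, 9.42, 20.4 and 10.1 CPM in IL-15 tumours, against 18.8, 10.7, 10.5, 7.39 and 9.36 CPM in control tumours. IL-15 tumour 4 and control tumour 1 were again apart from the rest, and the group means were 11.6 ± 5.06 and 11.3 ± 4.35 CPM. HIST1H2BC reached 5.51, 7.02, 9.48, 15.7 and 9.04 CPM in IL-15 tumours and 11.4, 7.56, 4.99, 5.87 and 4.93 CPM in control tumours. HIST1H2BN, whose annotation spans 5477 bases of exon, varied less, at 8.41, 12.5, 12.5, 15.7 and 14.4 CPM in IL-15 tumours and 12.6, 12.6, 7.66, 11.9 and 7.65 CPM in control tumours. In both genes IL-15 tumour 4 was highest and the groups overlapped. Over all 10 libraries, the other H2B rows of at least 1 CPM averaged 21.9 CPM for HIST2H2BC, 7.57 for HIST1H2BJ, 7.14 for HIST2H2BD, 5.90 for HIST1H2BG, 3.85 for HIST2H2BF, 1.90 for HIST3H2BB, 1.80 for HIST1H2BL, 1.62 for HIST1H2BE and 1.52 for HIST1H2BF.

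H2A genes had 2 leading members. HIST3H2A (ENSG00000181218, chr1:228456979-228457873, minus strand) stood at 20.1, 27.2, 21.8, 37.3 and 38.9 CPM in IL-15 tumours, against 39.1, 35.9, 29.0, 33.4 and 40.3 CPM in control tumours. IL-15 tumours 1, 2 and 3 lay below every control tumour and the other 2 lay within the control range. HIST1H2AC (ENSG00000180573, chr6:26124145-26139116, plus strand) reached 37.1, 43.6, 35.1, 62.6 and 32.8 CPM in IL-15 tumours, against 55.7, 41.5, 32.2, 26.3 and 25.5 CPM in control tumours, with IL-15 tumour 4 and control tumour 1 highest. HIST1H2AE stood at 3.10, 3.03, 2.87, 6.02 and 2.06 CPM in IL-15 tumours, against 5.38, 5.09, 2.53, 2.33 and 4.15 CPM in control tumours. Its highest library was IL-15 tumour 4, and the remaining IL-15 tumours lay close together. Means over all libraries were 4.42 CPM for HIST1H2AG, 1.46 for HIST2H2AA4, 1.32 for HIST2H2AC, 1.25 for HIST1H2AI and 1.02 for HIST2H2AA3.

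**Figure D2:**
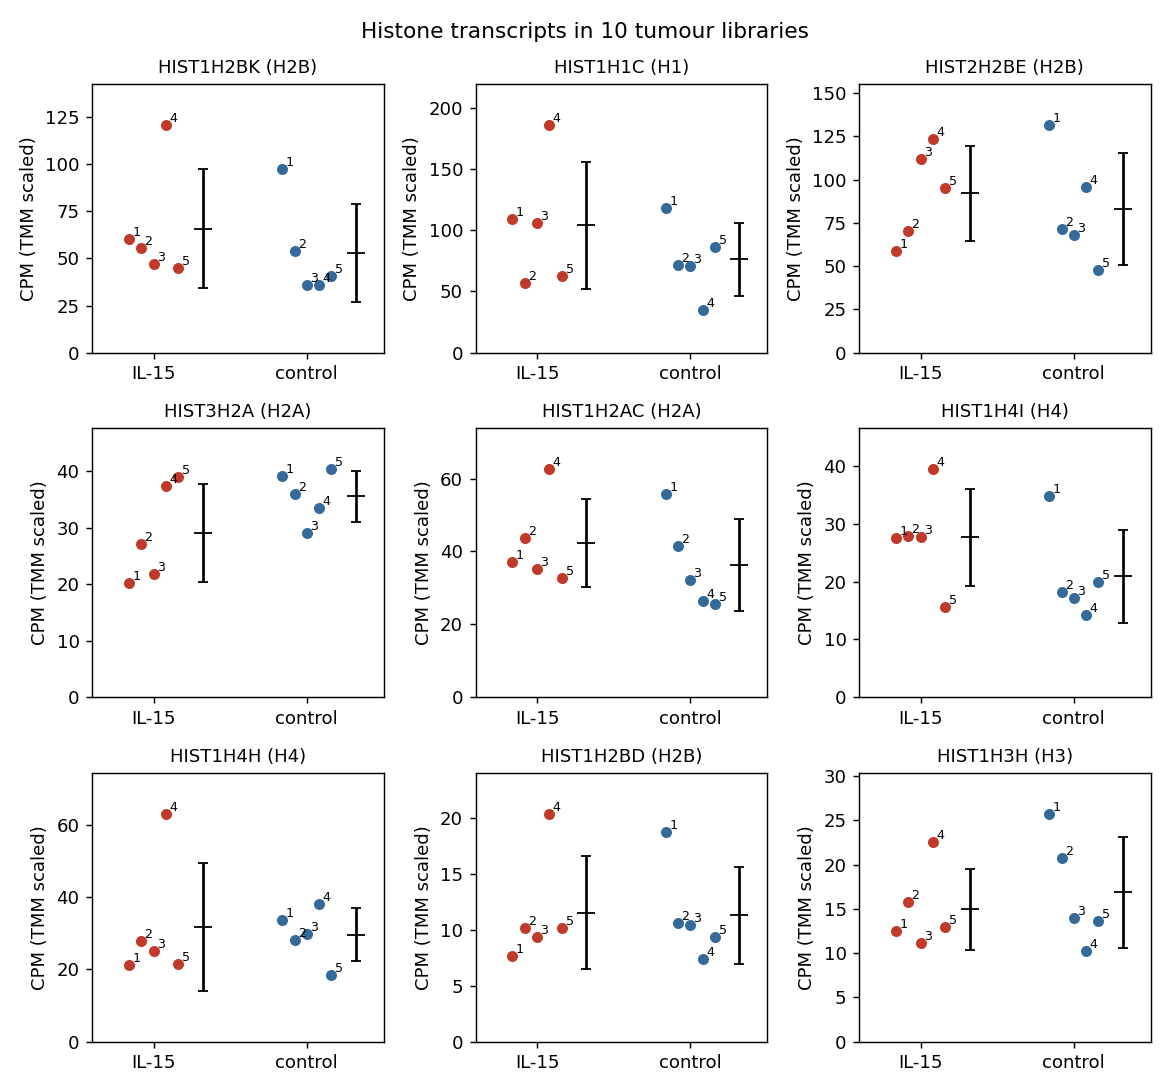
CPM (y axis, from 0, a scale of its own in each panel) of the 9 members with the highest mean FPKM, with IL-15 tumours in red on the left and control tumours in blue on the right. Points are libraries with their replicate number, and bars are the mean ± SD of 5 libraries; IL-15 tumour 4 is the highest IL-15 library in 8 panels and control tumour 1 the highest control library in 7, while HIST3H2A and HIST1H4H differ in their control libraries.

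H3 genes were the lowest class per length. HIST1H3H (ENSG00000278828, chr6:27810064-27811300, plus strand) stood at 12.5, 15.7, 11.1, 22.6 and 12.9 CPM in IL-15 tumours, against 25.7, 20.8, 14.0, 10.2 and 13.7 CPM in control tumours. Control tumour 1 was highest, and the groups overlapped. HIST1H3E reached 12.4, 9.36, 11.7, 13.3 and 8.60 CPM in IL-15 tumours, against 12.4, 10.7, 8.14, 7.39 and 7.65 CPM in control tumours, a narrow range. HIST1H3B, at 0.600 ± 0.302 CPM in IL-15 and 0.978 ± 0.498 CPM in control tumours, and HIST1H3A were among the members tested at a mean under 1 CPM.

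H4 genes had no dominant member. HIST1H4I (ENSG00000276180, chr6:27138588-27139881, plus strand) stood at 27.5, 28.0, 27.8, 39.5 and 15.6 CPM in IL-15 tumours, against 34.8, 18.3, 17.2, 14.3 and 20.0 CPM in control tumours. IL-15 tumours 1 to 4 lay above control tumours 2 to 5, and IL-15 tumour 5 and control tumour 1 crossed over. HIST1H4H (ENSG00000158406, chr6:26277609-26285638, minus strand) reached 21.1, 27.9, 25.2, 63.1 and 21.5 CPM in IL-15 tumours, against 33.6, 28.0, 29.7, 38.2 and 18.4 CPM in control tumours. IL-15 tumour 4 alone was apart, and the other 4 IL-15 tumours lay within the control range. HIST4H4, the only gene of its cluster, stood at 7.93, 7.71, 16.3, 22.9 and 15.4 CPM in IL-15 tumours, against 19.3, 8.12, 11.7, 15.9 and 4.86 CPM in control tumours. HIST1H4E averaged 3.26 CPM and the pseudogene HIST1H4PS1 1.38 CPM.

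Setting IL-15 against control tumours, which asks whether the added cytokine changed the tumour transcriptome, called no histone gene. Of the 60 members, 37 passed the filter on low counts and 0 had an adjusted p under 0.05 (smallest 0.767, edgeR's quasi-likelihood test with Benjamini-Hochberg adjustment over 16913 genes), in a fit that called 0% of all tested genes. DESeq2 called 7 of all genes, a background of 0.0414%, with 0 histone members among them, and limma voom called 0. At an unadjusted p under 0.05, edgeR had 0 members higher in IL-15 tumours, where 3.03% of all genes passed, and 1 member lower, where 3.43% passed. DESeq2 and limma voom had 0 members at that level. No member had every IL-15 library above or every IL-15 library below all control libraries, which 0.349% and 0.313% of all tested genes had.

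The member with the smallest p was HIST1H3A (ENSG00000275714, chr6:26020490-26020900, plus strand), an H3 gene close to the floor. It stood at 0.414, 0.478, 0.374, 0.430 and 0.809 CPM in IL-15 tumours, against 1.28, 1.13, 1.85, 0.174 and 0.858 CPM in control tumours. Control tumours 1, 2, 3 and 5 lay above every IL-15 tumour and control tumour 4 lay below them all. The log2 fold change was -1.07 ± 0.50 SE, with an unadjusted p of 0.0499 and an adjusted p of 0.767 by edgeR. Among the next members with negative values, HIST1H3B had -0.71 ± 0.46, HIST3H2A -0.29 ± 0.19, HIST1H2BPS2, a pseudogene, -0.68 ± 0.53 and HIST1H2BO -0.52 ± 0.46. The 5 members with positive values and the smallest p were HIST1H4I at 0.40 ± 0.26, HIST1H2BC at 0.43 ± 0.31, HIST1H3E at 0.25 ± 0.21, HIST1H2BN at 0.27 ± 0.22 and HIST1H1C at 0.45 ± 0.36. None of these 10 members passed the test.

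Taken by sign, 23 of the 37 tested members had a log2 fold change above 0 and 14 below 0, where 51.0% of all tested genes lay below 0. Their median was 0.11, beside -0.01 for all genes. Of the 31 tested members with a mean of at least 1 CPM, 22 lay above 0 (median 0.13), against 1 of 6 under 1 CPM (median -0.60). These 6 are the few low members that passed the filter, which a gene can pass mainly through 1 group. The other 23 members under 1 CPM were not tested. With all 60 members tested, 37 lay above 0 and 23 below, so the 6 do not stand for the low members. By class, 12 of 16 H2B genes (median 0.14) and 4 of 5 H4 genes (0.17) lay above 0, as did 5 of 9 H2A genes (0.01), 1 of 3 H1 genes (-0.13) and 1 of 4 H3 genes (-0.44). In the 13 members with at least 10 CPM, the difference was at most 0.45 in either direction.

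The signs depended on single libraries. Without IL-15 tumour 4, 24 of 37 tested members lay below 0 with a median of -0.14. Without control tumour 1, 10 of 38 lay below 0 with a median of 0.28, and with both left out, 13 of 36 lay below 0 with a median of 0.12. The median also came close to 0 without control tumour 3 (0.01), without control tumour 4 (-0.01) and without control tumour 5 (0.004).

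The summed level of the members averaged 551 ± 177 CPM in IL-15 tumours and 484 ± 145 CPM in control tumours (SD, n = 5 each), a log2 difference of 0.18 ± 0.25 SE. Without IL-15 tumour 4 the IL-15 mean was 473 CPM and the log2 difference 0.01, and without control tumour 1 the control mean was 421 CPM and the difference 0.34. With both left out it was 0.17. By class, the sums averaged 106 ± 52.1 against 78.9 ± 30.7 CPM for H1, 249 ± 73.9 against 218 ± 75.3 CPM for H2B, 85.6 ± 21.7 against 87.1 ± 21.6 CPM for H2A, 29.1 ± 6.30 against 30.0 ± 10.0 CPM for H3, and 80.8 ± 31.8 against 69.6 ± 19.0 CPM for H4, IL-15 tumours before control tumours in each. All of these differences were smaller than the spread between tumours.

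**Figure D3:**
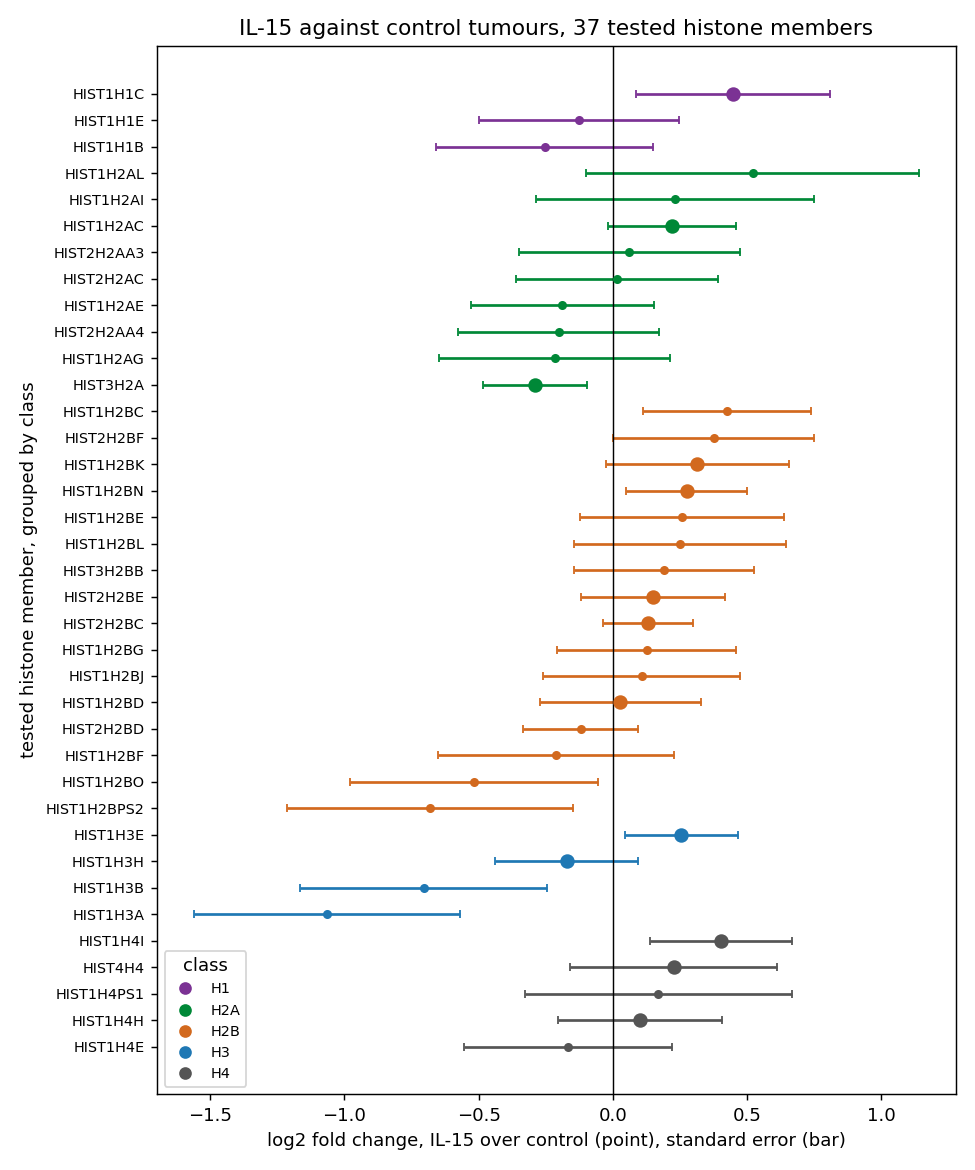
Log2 fold change, IL-15 over control (x axis; point, with the standard error from edgeR as bar), of the 37 tested members, grouped and coloured by class and sorted within it; large points mark the 13 members of at least 10 CPM. The abundant members lie between -0.29 and 0.45, and HIST1H3A at -1.07 and HIST1H3B at -0.71 lie farthest to the left.

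Histone genes often lie head to head, with a short shared promoter between 2 genes read in opposite directions, as is known for H2A and H2B pairs. Among the HIST rows, 17 such pairs with at most 500 bases between the gene starts were found in the table, 11 of them with both genes among the members (gaps of 123 to 356 bases), 2 with 1 member and 4 with none. The levels of the partners were often unlike. The ratio of the higher to the lower mean FPKM ranged from 1.06 to 253 in the 11 pairs, with a median of 2.45, and in 7 of them the same gene was higher in all 10 libraries.

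The most unequal pair was HIST1H2BK at 141 ± 65.7 FPKM and HIST1H2AH at 0.556 ± 0.353 FPKM, with 330 bases between them and a ratio of 253. In the HIST3 cluster the H2A gene was the higher, with HIST3H2A at 32.7 ± 7.52 and HIST3H2BB at 0.726 ± 0.225 FPKM, a ratio of 45.1. HIST2H2BE stood at 11.7 times the level of HIST2H2AC (3.07 ± 1.16 FPKM). Partners were closer in the other pairs, as with HIST1H2AC at 21.3 ± 6.43 and HIST1H2BC at 8.83 ± 3.64 FPKM (ratio 2.41), or HIST1H2AE at 6.49 ± 2.47 and HIST1H2BG at 3.48 ± 1.39 FPKM (ratio 1.87). Of the 10 pairs that join an H2A with an H2B gene, H2B was the higher by FPKM in 6 and H2A in 4. The H2B rows that led their pairs included HIST2H2BC and HIST2H2BD, which are annotated as pseudogenes and overlap each other. HIST1H2AE was higher than HIST1H2BG by FPKM but had fewer counts, 551 against 896. Both partners were tested in 8 pairs, and in 3 of them the log2 fold changes between IL-15 and control tumours had the same sign. The gene models differ within pairs, with 381 bases for HIST1H2BK and 387 for HIST1H2AH but 895 for HIST3H2A and 2364 for HIST3H2BB, and FPKM spreads the counts over the whole model.

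**Figure D4:**
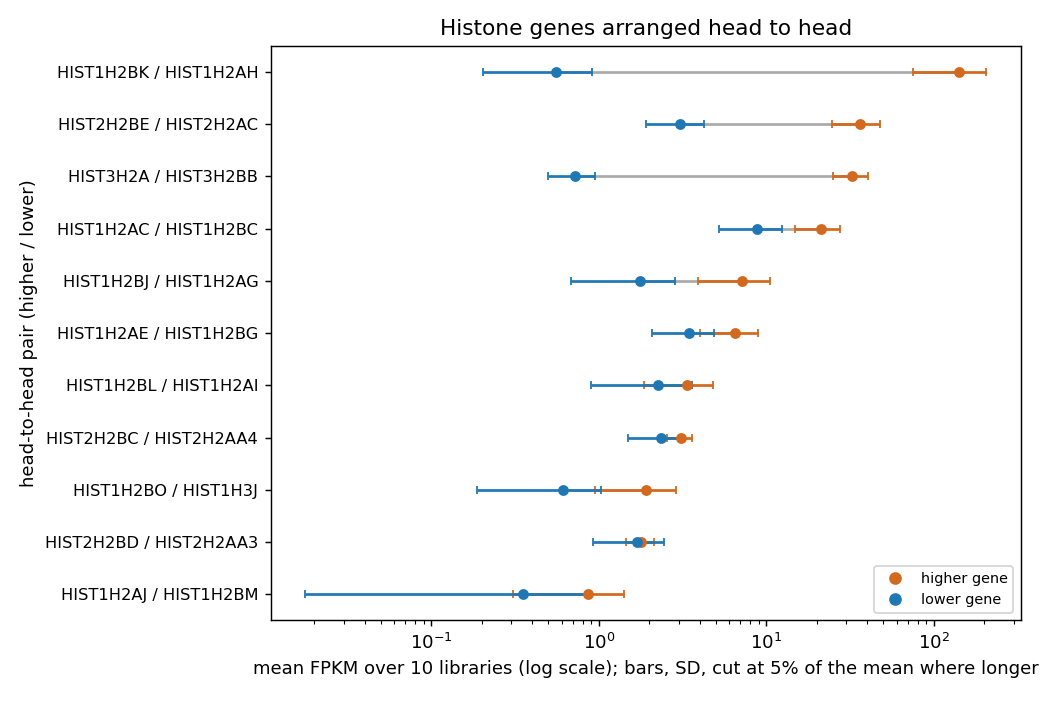
Mean FPKM over 10 libraries (x axis, log scale; bars, SD, shortened at the low end to 5% of the mean where longer) of the higher gene (brown-orange) and the lower gene (blue) in each of the 11 head-to-head pairs of members. The top rows have partners far apart, 253-fold for HIST1H2BK and HIST1H2AH, and HIST2H2BD and HIST2H2AA3 nearly coincide per length at a ratio of 1.06. Their counts were unlike, at 1079 for the pseudogene HIST2H2BD (3612 bases) and 152 for HIST2H2AA3 (549 bases).

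Annotated gene models differed in length among the members. Of the protein-coding members, 27 were annotated with at most 700 bases and 19 with over 1000 bases. A mean of at least 1 CPM was reached by 15 of these 19 long models (median 4.42 CPM, 1.92 FPKM) and by 13 of the 34 of up to 1000 bases (median 0.774 CPM, 1.49 FPKM). The libraries that stood apart did so in both sets. The 39 members of up to 1000 bases summed to 232, 183, 218, 425 and 193 CPM in IL-15 tumours, against 334, 215, 176, 135 and 209.7 CPM in control tumours. The 21 longer members summed to 229.8, 259.6, 303, 437 and 272 CPM in IL-15 tumours, against 399.9, 268, 235, 259 and 187 CPM in control tumours. IL-15 tumour 4 and control tumour 1 were highest in both sums, and control tumour 4 was low only in that of the short models.

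Counts of near-identical or overlapping genes are uncertain. HIST2H2AA3 and HIST2H2AA4, HIST2H3A and HIST2H3C, and HIST2H4A and HIST2H4B are known as duplicated copies whose reads the counting could split, and the coding sequences of many members are alike. Another annotated gene overlapped 16 members, in 10 of them another histone row, and whether counting used strand was not given in the sources used here. HIST1H2AK, with 0 counts, lies inside HIST1H2BN, which had 1773 counts. Mouse histone genes encode nearly the same proteins, and whether mouse reads were removed is likewise not given.

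The rule's threshold fell in a thin region. Just inside it were HIST2H3C and HIST1H1T with 12 counts each and HIST1H3I and HIST1H3PS1 with 11, and the nearest row outside was HIST1H4A with 8. Of the 30 rows outside, 13 had no count in any library and 17 had 1 to 9 counts, and 18 of the 30 are protein-coding. The 29 members under 1 CPM summed to 11.9, 8.56, 9.55, 13.0 and 10.6 CPM in IL-15 tumours and to 18.2, 12.9, 9.51, 5.64 and 11.7 CPM in control tumours. Control tumour 1 was highest in this sum too, but the others lay close together apart from control tumour 4. HIST1H4C, an H4 gene, was in this group with a mean of 0.357 CPM, and HIST3H3, the testis H3 gene, averaged 0.303 CPM.

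Replication independent variants, most of whose mRNAs carry poly(A) tails and are made throughout the cycle, were more abundant per length. The 12 variant genes summed to 841 FPKM over the mean of all libraries, against 499 FPKM for the 60 replication dependent members. The highest were H2AFX at 176 ± 90.7 FPKM, whose protein is phosphorylated at DNA breaks and whose mRNA is also known in a stem-loop form, and H2AFZ, which encodes H2A.Z, at 150.2 ± 44.3 FPKM. H2AFX stood at 259, 254, 113, 226 and 265 CPM in IL-15 tumours, against 349, 429.8, 429, 149 and 663 CPM in control tumours. IL-15 tumours were lower apart from the overlap given by control tumour 4, with a log2 fold change of -0.85 ± 0.34 that did not pass the test (adjusted p = 0.758, edgeR). H2AFJ had -0.73 ± 0.30 (293 ± 102 against 487 ± 189.6 CPM, adjusted p = 0.758, edgeR). Of the 11 variants tested, 3 lay above 0 and 8 below, with a median of -0.11, and 0 passed.

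The genes that make, remove and package histones showed no called change either. Of 19 genes for histone transcription and 3' end processing, 11 lay above 0 and 8 below (median 0.01). LSM10, a protein of the U7 particle, stood at 38.0 ± 5.62 CPM in IL-15 tumours and 49.1 ± 10.2 CPM in control tumours (log2 fold change -0.37 ± 0.17, adjusted p = 0.758, edgeR). Of 10 genes for histone mRNA decay, 2 lay above 0 and 8 below (median -0.07), and UPF1, the helicase of that pathway, stood at 231 ± 49.7 and 231 ± 14.1 CPM. Of 17 chaperone and assembly genes, 5 lay above and 12 below (median -0.12), with NAP1L1, an H2A and H2B chaperone, at 986 ± 188 and 985 ± 218 CPM and NAP1L4, its relative, at -0.32 ± 0.14 (adjusted p = 0.758, edgeR). Of 32 S phase genes, 11 lay above and 21 below (median -0.07), with PCNA, the replication clamp, at 152 ± 35.6 and 152 ± 36.8 CPM, and of 15 genes of G2 and mitosis, 2 lay above and 13 below (median -0.17). None of these genes passed the threshold by edgeR, as no gene of the table did. The lists share libraries and many of their genes move together over the cell cycle, so the counts of signs are a description.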

How the data were processed

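Per the labels' protocols, TRIzol RNA from 10 tumours was sequenced by Illumina. The tools listed in the submitters' processing notes, with build hg38 and no roles, are GATK 4.1.1.0, DESeq2 1.20.0, featureCounts 1.5.0-p3, HISAT2 2.0.5 and fastp. How libraries were selected, strand, the annotation release and whether mouse reads were removed were not given in the sources used here. Raw counts per human gene, with coordinates and length, are in the deposited table, per the file headers, although the samples are labelled as mouse. The authors also deposited FPKM values, which scale counts by gene length and library total, and these were used for comparisons between genes. A table of group mean FPKM was not used.

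Groups came from the sample labels. The labels do not state that each library is a separate mouse, so a p-value measures only the spread among libraries. All pairs of libraries differed beyond sampling noise (chi-square over degrees of freedom 17.9 to 78.5 over 45 pairs). Genes passing filterByExpr (minimum count 10) were TMM-scaled and tested over the whole table with edgeR 4.0.16 (quasi-likelihood, robust, R 4.3.3), with the threshold at 0.05 after Benjamini-Hochberg adjustment, and the common biological coefficient of variation was 0.306. The procedure was tested on simulated data. Alternatives used DESeq2 1.42.0, limma 3.58.1, other scalings and filters, log2(FPKM + 0.1), a replicate block and libraries left out. Leaving out IL-15 tumour 4 and control tumour 1 together was chosen after seeing the data.

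The members and lists were chosen with earlier results of these data known. Named were members with a mean of at least 1 CPM, the 3 with the highest mean FPKM per class, the 5 tested members with the smallest p per direction, rows next to the count threshold and, per comparison list, up to 3 genes with the highest mean CPM and 2 with the smallest p. Genes named outside this rule (the partners in head-to-head pairs, HIST1H2AK, HIST1H4C, HIST3H3 and RNAs at 0) were chosen after their values were seen. No sequences are shown.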

Additional observations from a re-analysis of the deposited data

Results flagged for a closer look

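In 58 groups of 5 libraries (sums, classes and 20 members), large gaps between libraries were looked for. A library was noted where its gap to the nearest other library of its group exceeded 0.71 of the group's range. Chance gives such a gap in about 1 in 20 groups if values are normally distributed, which was not tested for these CPM values. It occurred 14 times, 9 of them in IL-15 tumour 4 and 3 in control tumour 1. Since sums and members share libraries and genes, the 14 are not independent.

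IL-15 tumour 4 was high in the sum of all members (863 CPM), in the sum of members of up to 1000 bases (425 CPM), in the sum without the 5 highest members (332 CPM), and in the sums of H3 (40.2 CPM) and H4 (137 CPM). It was also high in HIST1H2AE (6.02 CPM), HIST1H2BK (121 CPM), HIST1H2BD (20.4 CPM) and HIST1H4H (63.1 CPM). Control tumour 1 was high in the sum of all members (734 CPM), in HIST1H2BD (18.8 CPM) and in HIST1H4I (34.8 CPM). IL-15 tumour 5 was high in HIST1H3A (0.809 CPM) and IL-15 tumour 1 in HIST1H2BPS2 (1.17 CPM), both members with few counts.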

How the results depend on the processing

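The count of histone members called stayed at 0 under all 19 alternatives, and the count of all genes called was 7 with DESeq2 and 0 under the other 18, the 10 fits without 1 library included (0 to 0). The 10 named members kept their sign and their side of the threshold in all 189 fits that gave a value. They were picked for the smallest p in each direction in these same libraries, so kept signs were likely beforehand. Fits without 1 library gave a median log2 fold change of the members from -0.14 to 0.28, a log2 difference of their sum from 0.01 to 0.34, and 10 to 24 members below 0. With every gene of at least 10 counts tested, 23 of 60 members lay below 0 (median 0.11). Other scalings moved the members' median to at most 0.17 and that of all genes to at most 0.08, and with library size alone 37.3% of all genes lay below 0 in place of 51.0%. DESeq2, limma voom and the replicate block give no value of their own for the sum.

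Replicate numbers are shared by the groups, and the correlations of same-numbered libraries' deviations were 0.29, 0.02, -0.17, -0.24 and -0.06. Libraries with unlike numbers were not compared in this way, so whether the numbers pair the groups is not settled by these values. With the replicate block 0 genes and 0 members were called, 1035 genes in place of 1092 had an unadjusted p under 0.05, and the members' median was 0.10. The block does not enter the sum of CPM, whose log2 difference is the same 0.18. At totals of 13.6 to 19.3 (in units of 1000000 counts), the 29 members under 1 CPM are limited by counting.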
